A study of Gallus gallus with 14 samples.

Results

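The data describe the retina of young White Leghorn chicks, as 7 libraries of total RNA labelled control out of the 14 libraries of a lens-wear experiment. The members were chosen by their label, control, and are named here by the number in their titles: controls 10, 17, 18, 19, 21, 22 and 23. All 14 libraries came from wild-type birds labelled postnatal day 3, and the other 7 came from eyes that had worn a -10 dioptre lens for 1 day. The control titles end in R in 4 libraries and in L in 3. The labels name no sex and do not say what the fellow eye of a control bird wore or whether each library was a separate bird, so the spread between libraries may be partly technical. No effect of the lens is described, and with a single group there is no test; every value below is a description with its spread over 7 libraries.

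The chick retina is a layered sheet in which rods and cones turn light into a slower release of glutamate. Bipolar cells carry that signal to ganglion cells, whose axons form the optic nerve, while horizontal and amacrine cells adjust it sideways. Müller glia span the whole thickness, take up glutamate and potassium, and buffer acid. The bird retina has no blood vessels of its own and is fed from the choroid and the pecten. Chicks are day-active, and cones outnumber rods in their retina.

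The deposited unit is CPM, reads on a row scaled to 1000000 reads of the library, with no division by transcript length. One read was worth 0.0249 to 0.0362 CPM, which gives 27.7 to 40.2 M reads (M, 1000000) per library behind the scaling (27.7 in control 23 and 40.2 in control 10). Of these, 8.63 to 12.02 M lay on the listed rows, so the 7 columns summed to between 298680 and 319250 CPM. No transcript lengths were given. The order of rows by CPM is therefore an order of read share, in which a long transcript counts for more than a short one at the same number of molecules. As these are whole retinas, fewer cells of a type and less RNA per cell cannot be told apart.

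Some libraries stood apart. Rows assigned to chromosome W summed to 650 to 655 CPM in controls 19, 21 and 23 and to 1.54 to 2.66 CPM in controls 10, 17, 18 and 22. Over 5031 rows off chromosomes W, Z and the mitochondrion, the first principal component held 30.7% of the variance and placed control 10 at 9.92, with the other 6 between -4.58 and 5.05. Of these rows, 253 (5.03%) had 1 library far from the other 6 by Dixon's test at the level that marks about 5% of groups by chance, and control 10 was that library in 62. No pair of libraries agreed within counting error. Their mean squared difference was 10.9 to 24.7 times the counting variance, and their median squared difference 2.11 to 6.02 times.

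Of 18631 rows, 10988 (59% of all rows) had a mean of at least 1 CPM, 5345 (28.7%) at least 10 CPM and 589 (3.16%) at least 100 CPM. The read share was uneven. The first row alone held 4.29 ± 0.358% of the listed CPM (SD, n = 7), the first 10 rows 7.48 ± 0.424%, the first 50 rows 13.7 ± 0.481%, and the first 1000 rows 53.9 ± 0.512%. Row 50 had a mean of 391 CPM and row 51 a mean of 388 CPM, so no gap marks the end of that set. The 50 rows held 6 that are not marked as protein-coding, among them the mitochondrial row EYY68_mgp13.

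The row with most reads was RN7SL1, the RNA of the signal recognition particle, which guides ribosomes to the endoplasmic reticulum. It had from 11299 CPM in control 23 through a median of 13287 to 14567 CPM in control 18. A mitochondrial row, EYY68_mgp13, whose listed span of 11988 bases covers most of the mitochondrial protein genes, averaged 1059 ± 137 CPM. Its lowest value was 790 CPM in control 10, and its coefficient of variation (CV, the SD as a percent of the mean) was 12.9% with control 10 and 6.78% without it. The long noncoding RNA OIP5-AS1 had 812 ± 24.99 CPM, with all 7 libraries between 771 and 851 CPM. The ribosomal RNA rows LOC112533599 and LOC112533601 averaged 819 ± 349 and 562 ± 357 CPM. The library kit depletes ribosomal RNA, so these values are what was left after depletion. Both rows were highest in controls 18 and 21, at 1411 and 1135 CPM for LOC112533599 and at 793 and 1279 CPM for LOC112533601.

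Among rows marked as protein-coding, SYNE1, ANK2 and DST had most reads, followed by the glycolysis genes LDHA and GAPDH and then by DYNC1H1 and ANK3. SYNE1, a giant nesprin that ties the nucleus to the cytoskeleton, ran from 2795 CPM in control 18 through a median of 2988 to 3360 CPM in control 19. The table lists it on the minus strand of chromosome 3 (GRCg6a) with a start of 49256951, an end of 49538651 and a span of 281701 bases. ANK2 and ANK3, ankyrins that anchor membrane proteins to spectrin, averaged 1062 ± 45.6 and 629 ± 23.2 CPM. DST, a linker between filament systems, averaged 952 ± 40.0 CPM, and DYNC1H1, the heavy chain of the motor that moves cargo toward the cell body, 717 ± 33.9 CPM. Near row 50 by mean, the spectrins SPTBN1 and SPTAN1 had 394 ± 29.0 and 388 ± 44.2 CPM. The read share of such rows cannot be turned into a number of molecules here.

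Of the 30 coding rows with most reads, SYT1, PCLO and SNAP25 are members of the list for synaptic vesicles and release. SYT1, the calcium sensor of vesicle release, had from 576 CPM in control 18 to 654 CPM in control 21, with a median of 602. PCLO, a giant scaffold of the release site, averaged 574 ± 23.5 CPM, and SNAP25, a membrane fusion protein, 473 ± 33.9 CPM. In the whole list, 17 of 20 members had at least 10 CPM and 6 at least 100 CPM, where the shares over all rows were 28.7% and 3.16%; their sum was 2568 to 2875 CPM. The scaffold RIMS1 (235 ± 9.45 CPM), the disassembly ATPase NSF (206 ± 5.52 CPM) and SV2B, a vesicle membrane protein (198 ± 17.4 CPM), were the next members by mean.

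The glycolysis list had LDHA, GAPDH and ENO1 among the 30. LDHA, which turns pyruvate into lactate, had from 637 CPM in control 19 through a median of 785 to 794 CPM in control 23, and control 18 had 691 CPM, so that 2 libraries lay below the other 5, which had 762 CPM or more. GAPDH had from 697 CPM in control 10 to 756 CPM in control 23, with a median of 737. ENO1, an enolase, averaged 584 ± 46.6 CPM, and below the 30 followed PKM, the pyruvate kinase (399 ± 28.1 CPM), PFKP, which commits sugar to glycolysis (355 ± 25.7 CPM), and GPI (273 ± 23.1 CPM). Of 17 listed members, 14 had a mean of at least 100 CPM, against 3.16% of all rows. The members together held 1.45 ± 0.0757% of the listed CPM. HK2, a hexokinase for the first step, ranged more widely than the others, from 93.6 CPM in control 18 to 170 CPM in control 21, and LDHB, the other lactate dehydrogenase chain, averaged 144 ± 15.1 CPM.

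Other rows among the 30 are of mixed function. DLG2, a scaffold of the postsynaptic side, averaged 580 ± 24.7 CPM, CLSTN1, which guides vesicles along axons, 521 ± 30.7 CPM, and NBEA, which helps to place receptors, 483 ± 28.2 CPM. APLP2, a relative of the amyloid precursor, averaged 587 ± 34.1 CPM; HIF1A, the oxygen-regulated transcription factor, 496 ± 15.5 CPM; PTN, a secreted growth factor, 483 ± 25.7 CPM; and SON, a splicing cofactor, 469 ± 19.5 CPM. APC, a brake on Wnt signalling that lies on chromosome Z, averaged 536 ± 62.7 CPM. HERC2, a ubiquitin ligase, had 523 ± 21.8 CPM, ATP11B, a lipid flippase, 465 ± 19.9 CPM, and EML5, a microtubule protein, 485 ± 23.1 CPM. XKR6, RAP1GDS1L and CADNL had 492 ± 30.7, 482 ± 53.9 and 479 ± 27.5 CPM. CPE, the carboxypeptidase that finishes neuropeptides, had 275 CPM in control 18 and 475 to 563 CPM in the other 6; its CV was 20.1% with that library and 6.002% without it. Leaving out any 1 library kept 49 or 50 of the first 50 rows.

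**Figure D1:**
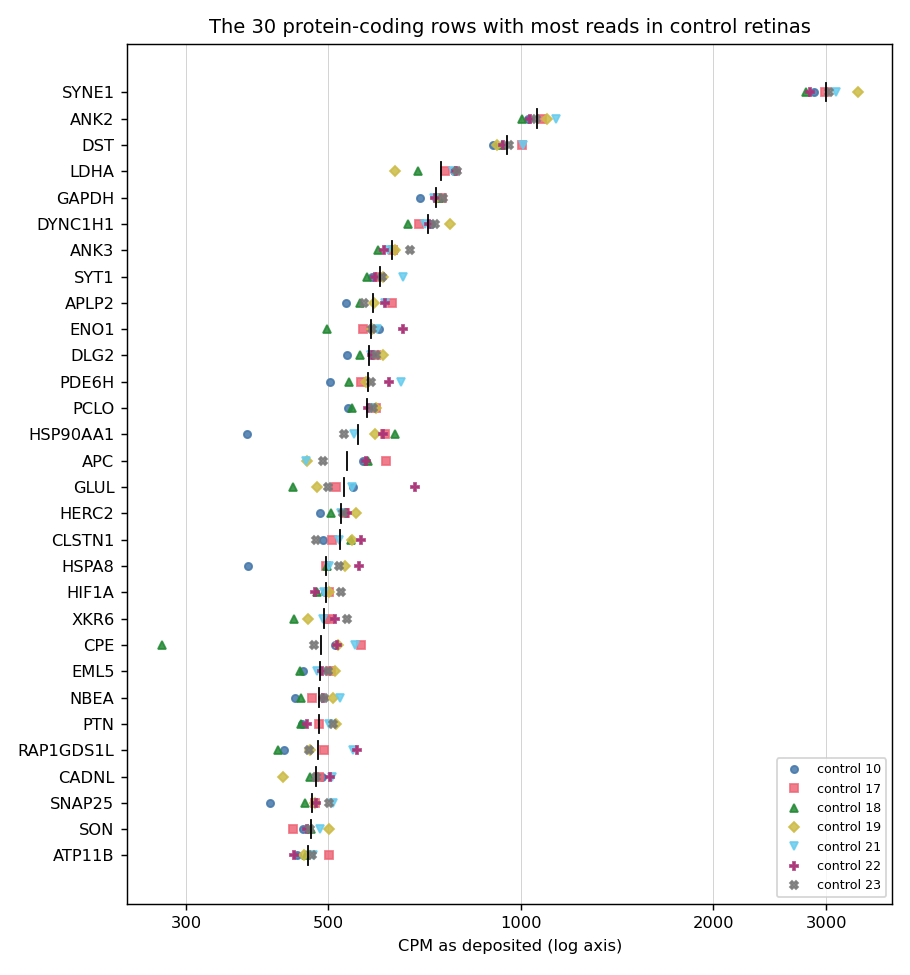
CPM as deposited (log axis) of the 30 rows marked as protein-coding with the highest mean, 1 marker per control library and a vertical line at the mean. SYNE1 stands alone at 2795 to 3360 CPM; HSP90AA1, HSPA8 and CPE each have 1 library far to the left of the other 6.

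The label retina was checked against photoreceptor genes, which were present at high read shares. Of the 13 cone genes in the table, 11 had a mean of at least 10 CPM and 7 at least 100 CPM. Of the 11 rod genes, 8 had at least 10 CPM and 3 at least 100 CPM. Of the 21 genes shared by both, 18 had at least 10 CPM and 11 at least 100 CPM. Over all rows the shares were 28.7% and 3.16%. The sums were 1925 to 2257 CPM for cone genes, 540 to 715 CPM for rod genes and 2638 to 2922 CPM for shared genes; because lengths differ, these sums do not compare cones with rods. Control 21 had the highest sum in all 3 lists, and also the highest sum over all listed rows, 319250 CPM. The bipolar, amacrine and synaptic lists were highest there too, while the ganglion cell list was highest in control 17 and the Müller glia list in control 22.

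The cone member with most reads was PDE6H, the inhibitory subunit of the cone phosphodiesterase, which ran from 503 CPM in control 10 through a median of 573 to 650 CPM in control 21. Its catalytic partner PDE6C averaged 250 ± 17.1 CPM. The transducin subunits GNGT2 and GNAT2, which couple the opsin to the phosphodiesterase, averaged 252 ± 21.5 and 153 ± 19.02 CPM. ARR3, the cone arrestin that ends the opsin's activity, had 236 ± 24.8 CPM, and SLC24A2, an exchanger that clears calcium, 252 ± 19.5 CPM. THRB, a thyroid hormone receptor needed for the green cone opsin in mice, averaged 163 ± 7.79 CPM, the least variable cone member with a CV of 4.77%. The channel subunits CNGA3 and CNGB3 had 60.2 ± 7.64 and 25.4 ± 1.97 CPM.

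Among cone list members with a mean of at least 10 CPM, the red and green opsins had CVs above 25%. OPN1LW, the red cone opsin, had 25.6 CPM in control 10, a median of 77.0 CPM, and a highest value of 96.6 CPM in control 23. Its CV of 37.9% was 25.02% without control 10. OPN1MSW, the green opsin, averaged 32.1 ± 8.45 CPM and was lowest in control 10 (19.2 CPM) and highest in control 23 (41.7 CPM), with a CV of 26.3% that was 19.96% without control 10 and 23.97% under median-of-ratios scaling. The rows for the violet and blue opsins, OPN1SW and OPN2SW, averaged 0.512 ± 0.234 and 0.345 ± 0.125 CPM. Their listed spans are only 424 and 748 bases, against 20423 for OPN1LW, so these rows may not cover whole genes and their values are not read as levels of the opsins.

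In rods, SAG, the rod arrestin, averaged 247 ± 31.8 CPM, and GNB1, a transducin subunit also used by other cells, 105 ± 10.9 CPM. The catalytic subunit PDE6B, on chromosome Z, averaged 72.9 ± 14.05 CPM, the inhibitory subunit PDE6G 11.2 ± 3.00 CPM, the transducin GNAT1 12.8 ± 2.84 CPM, and the channel CNGA1 13.4 ± 1.71 CPM. Of 8 rod members with a mean of at least 10 CPM, 7 were highest in control 21. The exception was PDE6B, highest in control 10 at 90.9 CPM, with 68.9 CPM in control 21. Control 21 was also highest in 4 of 11 bipolar, 3 of 10 amacrine and 0 of 8 Müller glia members of that level. It was highest in 8 of 18 shared photoreceptor, 8 of 17 synaptic and 13 of 35 respiratory chain members. For cone genes the count was 3 of 11, and for ribosomal protein genes 9 of 66. The share of all rows highest in control 21 was not counted, so 7 of 8 is not read as a trait of rods. In that library the median row off W, Z and the mitochondrion stood at 1.03 of the row's own mean. SAG shares its listed span with DGKD, and GNB1 with NADK, so reads of these neighbours may be mixed.

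The shared photoreceptor genes included parts of the matrix around the outer segments and of the segments themselves. IMPG1 and IMPG2, matrix proteoglycans, averaged 398 ± 17.3 and 228 ± 11.8 CPM; the listed span of IMPG1 overlaps MYO6. UNC119, which carries lipid-modified signalling proteins, had 335 ± 25.5 CPM. PROM1, PRPH2 and ROM1, which build the disc rims, averaged 228 ± 22.1, 191 ± 8.80 and 198 ± 11.3 CPM; ROM1 overlaps UBR1. GUCA1C, a calcium sensor of the cyclase, had 203 ± 18.4 CPM, PDC, which binds transducin, 200 ± 9.44 CPM, the axoneme protein RP1 195 ± 10.3 CPM, the retinoid transporter ABCA4 156 ± 9.70 CPM, and RGS9, which ends transducin signalling, 105 ± 6.51 CPM. RDH8, which reduces the retinal released from bleached opsin, spread most, from 42.4 CPM in control 19 to 101 CPM in control 21. Rows under the symbols GNGT1, GNB3, RCVRN, CRX and GUCY2D were not analysed here.

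Bipolar cell genes had sums that differed little between libraries. TRPM1, the channel that opens in ON bipolar cells, had from 165 CPM in control 22 through a median of 180 to 192 CPM in control 19, with no library apart. GRIK1, a kainate-type glutamate receptor subunit found in OFF bipolar cells of mammals, averaged 150 ± 9.47 CPM. PRKCA, a kinase used as a bipolar cell marker, averaged 124 ± 4.71 CPM. RGS7, a regulator of G protein signalling, had 77.0 ± 2.96 CPM and the transcription factor VSX1 58.1 ± 4.48 CPM. In the bipolar list 11 of 15 members had at least 10 CPM, against 28.7% of all rows, and the list's sum was 707 to 760 CPM, a CV of 2.88%.

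Horizontal cells were marked by PROX1 (116 ± 4.98 CPM), ONECUT2 (49.1 ± 11.4 CPM) and the calcium binder CALB1 (43.7 ± 7.30 CPM); 4 of 9 members had at least 10 CPM, where all rows had 28.7%. ONECUT2 and ISL1 lie on chromosome Z and were lower in controls 19, 21 and 23 than in the other 4 (34.5 to 40.2 against 56.1 to 60.2 CPM for ONECUT2, and 9.96 to 11.4 against 14.7 to 19.2 CPM for ISL1). ONECUT1 and LHX1 averaged 1.58 ± 0.387 and 1.69 ± 0.248 CPM. In the amacrine list 10 of 14 members reached that level. GAD1 and GAD2, which make the inhibitory transmitter GABA, averaged 317 ± 12.8 and 85.9 ± 5.80 CPM, and the transcription factor TFAP2B 69.6 ± 4.20 CPM. SLC5A7, the choline transporter of starburst cells, had 33.2 ± 2.95 CPM and the glycine transporter SLC6A9 14.6 ± 2.51 CPM. TH, the first enzyme of dopamine synthesis, present in a sparse amacrine class, had 0.169 to 0.670 CPM.

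Of the neuropeptides, NTS, neurotensin, had most reads, with 61.2 CPM in control 10, a median of 73.4 and 85.7 CPM in control 23. TAC1, the precursor of substance P, averaged 5.22 ± 1.03 CPM and CCK 1.69 ± 0.365 CPM. Of 15 listed neuropeptide genes, 3 had at least 10 CPM (28.7% of all rows did): NTS, PENK and GCG.

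The ganglion cell list had 8 of 17 members at 10 CPM or more and 0 at 100 CPM, beside 28.7% and 3.16% of all rows. The median member had a mean of 3.30 CPM, and 13 of 17 had at least 1 CPM (59% of all rows did). The members with most reads were as follows, and values of the others are not reported here. NEFL, the light neurofilament, averaged 96.0 ± 8.61 CPM, NEFM 27.9 ± 2.23 CPM, the glutamate transporter SLC17A6 49.2 ± 2.92 CPM and the synuclein SNCG 42.7 ± 1.48 CPM. The 7 values of SNCG lay between 40.4 and 45.0 CPM, and its CV of 3.48% stood near the 2.60% that counting alone would give.

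In the Müller glia list, 8 of 14 members had at least 10 CPM (28.7% of all rows did), the sum had a CV of 9.33%, and control 22 stood out. GLUL, glutamine synthetase, had 683 CPM in control 22 and 441 to 547 CPM in the other 6. CA2, carbonic anhydrase, had 542 CPM in control 22 and 273 to 352 CPM in the others, a CV of 26.9% that was 10.2% without that library. SLC1A3, the glial glutamate transporter on chromosome Z, was lowest there, at 221 CPM against 281 to 335 CPM. The water channel AQP4 (128.1 ± 15.4 CPM) and the filament VIM (123 ± 13.003 CPM) had neither their highest nor their lowest value in control 22. The glial members therefore did not move as a block. RLBP1, which binds retinal during cone pigment recycling, averaged 29.2 ± 4.95 CPM. Summed over 14 listed members, the list had 1764 CPM in control 22 and 1290 to 1507 CPM in the other 6. Control 22 also had the highest sum for markers of pigment epithelium (19.2 CPM) and for cholesterol synthesis (396 CPM, against 297 to 335 CPM elsewhere). RGR gave 8.12 CPM of that pigment epithelium sum. Of the other pigment epithelium members with a mean of at least 1 CPM, LRAT was highest in control 23, RPE65 in control 19 and SERPINF1 in control 17. The part of either list in the glial values was not tested.

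Myelin genes were present; the axon layer of the bird retina is partly myelinated. MBP, myelin basic protein, had from 92.1 CPM in control 19 through a median of 154 to 198 CPM in control 21. CNP and UGT8, further myelin genes, averaged 13.7 ± 2.68 and 7.86 ± 1.39 CPM. MBP, CNP and UGT8 were each lowest in control 19, and MBP and CNP were highest in control 21. MBP overlaps ZNF236 and CNP overlaps DNAJC7 in the table. The labels do not say how much optic nerve head each dissection held.

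Markers of tissues next to the retina were read against the 59% of all rows that had a mean of at least 1 CPM. In the list for pigment epithelium, 4 of 13 members reached that mean (RGR, LRAT, RPE65 and SERPINF1), and the list's sum ran from 7.37 CPM in control 17 to 19.2 CPM in control 22. RGR, a retinal-binding opsin, made much of that difference, with 0.268 CPM in control 17 and 8.12 CPM in control 22. The pigment genes TYR and PMEL averaged 0.0933 ± 0.0970 and 0.245 ± 0.163 CPM. Of 12 symbols listed for red blood cells only 1 has a row, SLC4A1, the anion exchanger, which is listed at 0 in all 7 libraries. Blood content was therefore not assessed. The vascular list had 4 of 12 members at 1 CPM or more and summed to 52.6 to 74.1 CPM. The endothelial genes KDR and PECAM1 averaged 36.0 ± 5.85 and 18.8 ± 2.33 CPM, while CDH5 averaged 0.0327 ± 0.0425 CPM and CLDN5 and RGS5 are listed at 0 in all 7 libraries. CSF1R, of macrophages and microglia, had 3.21 ± 1.03 CPM, and its list had 2 of 8 members at 1 CPM or more and a sum of 4.60 to 8.71 CPM. The list of lens genes had 4 of 15 members at 1 CPM or more and a sum of 20.2 to 26.7 CPM, of which CRYBA4 had 16.5 ± 1.65 CPM, and CRYAA is listed at 0 in all libraries but control 21, where it had 0.0582 CPM. KERA, of connective tissue, averaged 8.68 ± 0.972 CPM in a list that summed to 12.4 to 14.96 CPM, and the muscle list summed to 0.515 to 1.07 CPM.

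**Figure D2:**
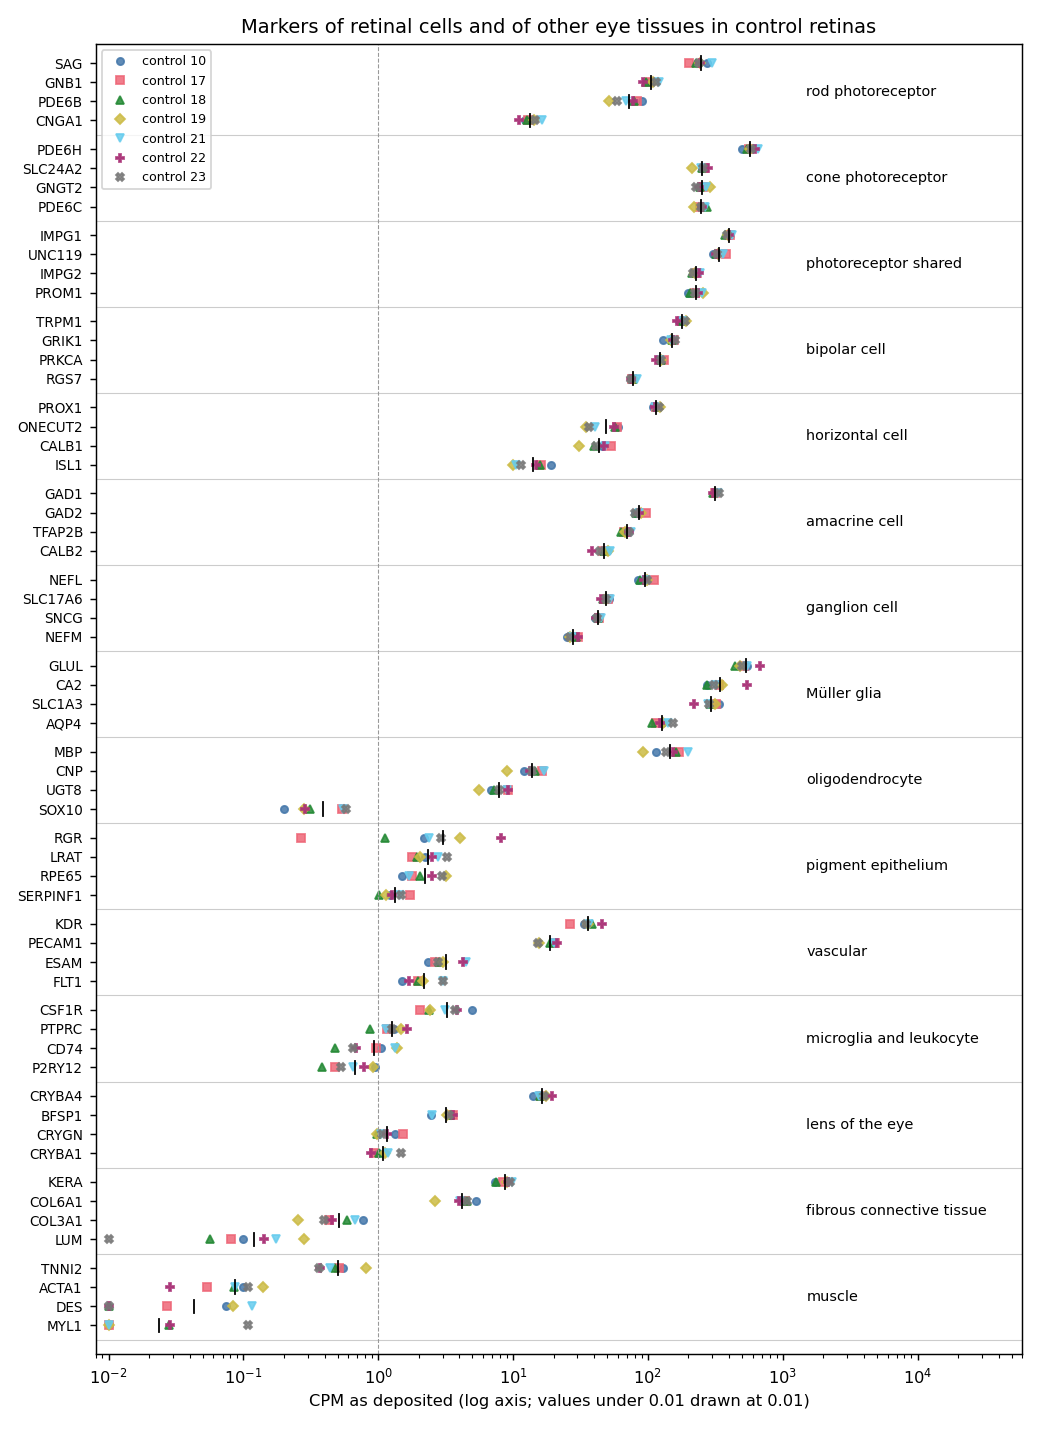
CPM as deposited (log axis) of the 4 markers with most reads, among those reported here, in each list of retinal cells, glia and neighbouring tissues, 1 marker per control library and a vertical line at the mean; the dashed line is 1 CPM. Markers of retinal neurons and Müller glia lie between 9.96 and 683 CPM, and RGR spans the widest range among the listed markers of neighbouring tissue with a mean of at least 1 CPM.

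Housekeeping systems had the following values. Of 76 cytosolic ribosomal protein genes, 66 had at least 10 CPM and 5 at least 100 CPM, against 28.7% and 3.16% of all rows, and they summed to 2843 ± 132 CPM. RPL4 (118 ± 4.92 CPM) and RPS3A (114 ± 6.86 CPM) led them. Of 74 genes for nuclear-coded parts of the respiratory chain, 35 had at least 10 CPM and 0 at least 100 CPM, with a sum of 958 ± 43.9 CPM. ATP1B3, a subunit of the sodium pump, averaged 121 ± 3.93 CPM and overlaps GRK7, a row with more reads. Of 17 cell division genes 1, MCM6, a part of the replication helicase, reached 10 CPM (11.997 ± 1.46 CPM), and MKI67, a marker of cycling cells, averaged 4.47 ± 0.696 CPM; its span overlaps PTPRE, a row with more reads.

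Of 9 translation factors 7 had at least 10 CPM, led by EIF4A2, an RNA helicase of initiation (369 ± 34.3 CPM), and EIF4G2 (235 ± 14.6 CPM). In the cytoskeleton list 20 of 23 members had at least 10 CPM and 9 at least 100 CPM (28.7% and 3.16% of all rows did), among them the microtubule proteins MAP1A (354 ± 31.0 CPM) and MAP2 (266 ± 10.4 CPM). Of 14 chaperones of the endoplasmic reticulum, 10 had at least 10 CPM; HSP90B1 averaged 110 ± 10.7 CPM, and HSPA5, which binds unfolded proteins there, ran from 42.1 CPM in control 10 to 63.4 CPM in control 17. Of 27 proteasome genes 15 had at least 10 CPM, with PSMC6, an ATPase of its cap, at 55.6 ± 3.14 CPM. The sum of the proteasome list varied little, between 369 and 403 CPM.

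Cholesterol synthesis had 9 of 23 members at 10 CPM or more, against 28.7% of all rows. HMGCS1, an enzyme early in the pathway, averaged 59.8 ± 7.26 CPM and overlaps NIM1KZ. STARD4, a sterol carrier, had 31.2 CPM in control 23 and 56.2 CPM in control 22. Both genes lie on chromosome Z. The synthesis enzymes IDI1 and MSMO1 and the regulator INSIG1, which do not, were also highest in control 22, at 27.2, 30.1 and 34.99 CPM.

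Of 20 immediate early genes 4 had at least 10 CPM, against 28.7% of all rows: DUSP6, a phosphatase that dampens ERK signalling (21.8 ± 2.10 CPM), CSRNP1 (18.6 ± 0.911 CPM), EGR1 and BTG2 (11.03 ± 1.68 CPM). The 13 interferon response genes in the table summed to 39.4 ± 2.09 CPM. In the cartilage list COL9A3, a collagen chain, averaged 5.30 ± 1.06 CPM, and 0 of 6 members reached 10 CPM.

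Of 13 members of the cytosolic chaperone list with a mean of at least 10 CPM, 12 had their lowest value in control 10. The exception was HSP90AB1, which had 18.1 CPM there against a mean of 17.6 CPM. HSP90AA1, a stress-inducible chaperone, had 374 CPM in control 10 and 529 to 637 CPM in the other 6, and HSPA8, a constitutive chaperone of the HSP70 family, had 375 CPM in control 10 and 496 to 558 CPM in the others. Their CVs were 16.03% and 11.8%, and without control 10 they were 7.01% and 4.76%. HSPH1 (25.6 CPM), HSPA4 (25.1 CPM), HSPA4L (118 CPM) and DNAJB6 (71.3 CPM) also had their lowest value in control 10. The list as a whole summed to 1125 CPM there and to 1537 to 1685 CPM in the other 6. Control 10 was the most deeply sequenced library and the one farthest out on the first principal component. It also had the smallest sum over all listed rows, 298680 CPM. Its median row off W, Z and the mitochondrion stood at 0.957 of the row's own mean. It was lowest in 6 of 10 endoplasmic reticulum chaperones, 6 of 17 synaptic members and 6 of 66 ribosomal protein genes. The share of all rows lowest in control 10 was not counted, so 12 of 13 is not read as a trait of chaperones. The part of depth or of the low sum in the chaperone values was not tested.

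The clock list had 18 of 25 members at 10 CPM or more and 5 at 100 CPM or more, against 28.7% and 3.16% of all rows. RORA, an activator within the clock, averaged 256 ± 13.9 CPM and HLF, a clock output factor, 224 ± 17.2 CPM. PER2, a repressor, ran from 214 CPM in control 10 to 279 CPM in control 22. ARNTL, the partner of CLOCK, varied most, from 11.6 CPM in control 22 to 22.4 CPM in control 19, a CV of 24.2%. Control 22 was thus highest in PER2 and lowest in ARNTL. Control 19, highest in ARNTL, had 228 CPM of PER2, under its median of 247 CPM. Control 10, lowest in PER2, had the median ARNTL value, 15.3 CPM. The labels give no time of day for the collection of each eye, and its part in these values was not tested. OPN4, the light sensor melanopsin, averaged 107 ± 10.5 CPM, and its span overlaps WAPL.

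The spread between libraries was larger than counting error for most rows. Over the 5345 rows with a mean of at least 10 CPM, the median CV was 8.25%, and counting alone would give a median of 3.22%. Off chromosomes W and Z, the median CV was smaller at higher read shares, being 20.1% at 1 to 3 CPM, 12.96% at 3 to 10 CPM, 9.22% at 10 to 30 CPM, 6.98% at 30 to 100 CPM and 5.69% at 100 to 300 CPM. It was 6.25% at 300 CPM and above. A CV from 7 libraries is itself uncertain: its 95% interval, for normally distributed values, runs from 0.644 to 2.20 times the estimate. At a CV of at least 25%, 134 rows (2.51%) were called variable, and at most 5%, 816 rows (15.3%) were called stable. The rows next to these limits had CVs of 25.04% and 24.97%, and of 5.000% and 5.003%.

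**Figure D3:**
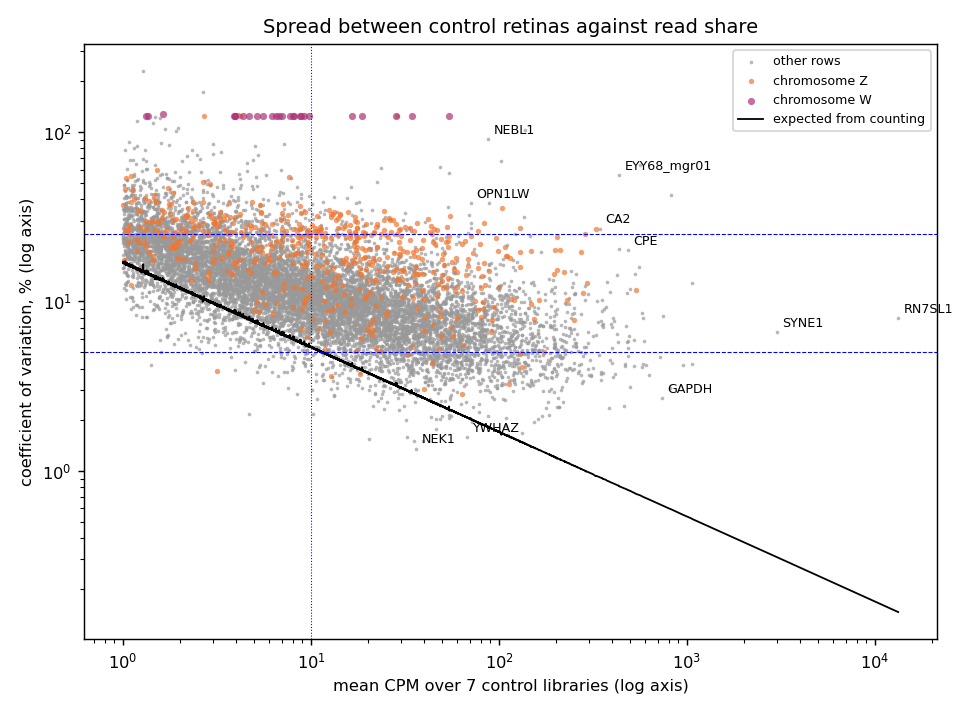
CV in percent against mean CPM (both log axes) for all rows with a mean of at least 1 CPM; points are grey for most rows, orange for chromosome Z and purple for chromosome W, and the black line is the CV from counting alone. Dashed lines mark 25% and 5% and the dotted line 10 CPM; chromosome W forms a band near 124% and chromosome Z lies above most rows of like mean.

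Rows on the sex chromosomes made up much of the variable set. Hens carry a Z and a W chromosome and cocks carry a pair of Z chromosomes, and birds equalise Z-linked expression only in part. Of the 134 variable rows, 68 were on chromosome Z, 5 on W, 2 on the mitochondrion and 59 elsewhere. On Z that was 68 of 305 rows (22.3%), with a median CV of 17.6%; off W, Z and the mitochondrion it was 59 of 5031 rows (1.17%), with a median CV of 8.001%. Relative to its own mean over the 7 libraries, the median Z row stood at 0.825 to 0.849 in controls 19, 21 and 23 and at 1.10 to 1.13 in controls 10, 17, 18 and 22. These are the same 3 and 4 libraries that W-linked reads separate. HINTW, the W-linked row with most reads, averaged 54.2 CPM and reached 132 CPM in control 23. RPS6, a ribosomal protein gene on Z, had 59.4 to 70.0 CPM in controls 19, 21 and 23 and 117 to 146 CPM in the other 4. LOC100859072, listed on Z, had 63.4 to 72.1 CPM in controls 19, 21 and 23 and at most 0.161 CPM in the others, the pattern of the W rows. When a line on the W-linked level was removed from every row, 63 rows had a CV of at least 25%.

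The 30 rows of largest CV, with chromosome W set aside, included 11 rows without a coding sequence, 2 of them mitochondrial ribosomal RNAs, and 6 rows on Z. EYY68_mgr02, a mitochondrial ribosomal RNA, had 440 CPM in control 18 and 55.5 to 183 CPM in the other 6, a CV of 102% that was 55.4% without that library. EYY68_mgr01, its partner, had 960 CPM in control 18 and 299.7 to 486 CPM in the others (55.5%, or 20.9% without it). In both rows control 21 was the next highest, at 183 CPM for EYY68_mgr02 and 486 CPM for EYY68_mgr01. LOC112530237, LOC112532457 and LOC112532456, small nucleolar RNA rows, had CVs of 67.2%, 62.5% and 61.5% and were each lowest in control 23.

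Among protein-coding rows off W and Z with a mean of at least 10 CPM, NEBL1 had the largest CV, 90.7%. Its 7 values were 207 CPM in control 10, 185 in control 23, 100.02 in control 18, 45.8 in control 19, 33.1 in control 21, 24.6 in control 17 and 16.1 in control 22, so they spread over the whole range with no single library apart. This row, on the minus strand of chromosome 7 (GRCg6a) with a start of 35172107 and an end of 35310023, overlaps RIF1, which averaged 19.7 CPM. CD226 and CCDC173 had CVs of 47.3% and 40.9%; CD226 overlaps the higher DOK6. EGR1, the immediate early transcription factor known as ZENK in the chick, had from 7.61 CPM in control 18 through a median of 8.84 to 18.8 CPM in control 17, a CV of 38.5%. Its values in controls 17, 21 and 22 were 14.004 to 18.8 CPM and those in the other 4 were 7.61 to 8.84 CPM. Listed on the plus strand of chromosome 13 with a start of 18949952 and an end of 18952755, it shares its span with LOC107049815. KCNA6, a potassium channel, had from 32.8 CPM in control 18 to 79.0 CPM in control 10, and TUBA1C, a tubulin, from 9.32 CPM in control 10 to 28.8 CPM in control 23. RSRP1, RPS19 and TNC, an extracellular matrix gene, were outside the 30 but also had their lowest values in control 10 (55.2, 5.56 and 7.69 CPM, against 101 to 171, 15.3 to 18.8 and 15.2 to 24.5 CPM).

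**Figure D4:**
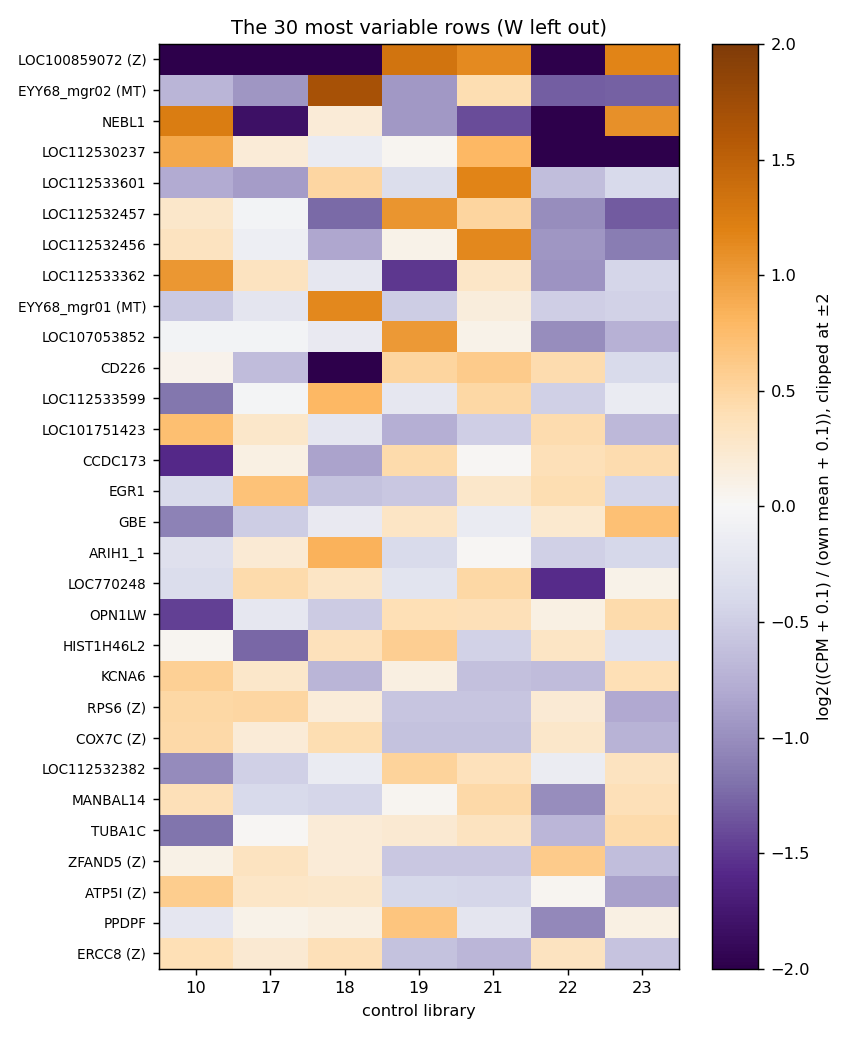
Level of each of the 30 most variable rows in each control library, as log2 of (CPM + 0.1) over (own mean + 0.1), orange above and purple below the mean and clipped at 2 in either direction. The 6 rows on Z split controls 19, 21 and 23 from the rest. The mitochondrial ribosomal RNAs and the ribosomal RNA rows LOC112533599 and LOC112533601 are highest in controls 18 and 21. The other rows do not share 1 pattern.

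Variable rows were short and stable rows long by genomic span. Of protein-coding rows off W and Z, the 46 variable ones had a median span of 11649.5 bases, and all 4933 with a mean of at least 10 CPM had a median of 31836 bases. The 816 stable rows had a median span of 50199 bases and a median of 52.0 CPM. The 46 variable rows had a median of 18.2 CPM, so span and read share move with the spread together, and their parts were not separated.

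The least variable rows were of moderate read share. NEK1, a kinase of the cilium, had from 35.6 to 37.0 CPM over the 7 libraries, a CV of 1.35%; it overlaps CLCN3, a row with more reads. SUCO (1.51%), BBS5, a cilium transport protein (1.54%), YWHAZ, a 14-3-3 adaptor (1.58%), and EPHA3, an ephrin receptor (1.59%), followed, with HDGFRP3 at 1.51%. ZMIZ1 (132 ± 2.22 CPM), AKAP6 (153 ± 2.99 CPM), a kinase anchor, and PAFAH1B1 (160 ± 3.24 CPM), a regulator of dynein, had more reads and CVs of 1.68%, 1.95% and 2.02%. Of these 20 rows, 14 had a CV at or under the counting value of their row, 2.82% for NEK1. Ranks among them are therefore within counting error and are not read as an order. When the columns were rescaled by median of ratios, 0 of the 20 remained in the lowest 20; all 20 kept a CV of at most 5%, between 2.68% and 4.56%.

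The lens libraries, which had no part in the ranking, gave a second reading of the same spread. The 30 most variable rows had a median CV of 38.5% in control and of 32.8% in lens libraries, where 22 of 30 were at 25% or more, as were 3.88% of all 5340 rows off W. The 20 least variable rows had a median CV of 1.89% in control and of 7.64% in lens libraries, where all rows had a median of 9.43%. There, 4 of the 20 (20%) were at 5% or less, against 9.89% of all rows. This comparison was not matched for level. All of the 20 but BBS5 had a control mean above 30 CPM. Off W and Z, the median control CV was 6.98% at 30 to 100 CPM and 9.22% at 10 to 30 CPM.

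Genes often used as references in quantitative PCR differed in spread. Of 22 listed genes, 15 had a mean of at least 10 CPM, and 2 of these had a CV of at most 5%, where the share over all such rows was 15.3%. YWHAZ had 65.5 to 68.6 CPM and a CV of 1.58% (95% interval 1.02 to 3.47%). GAPDH had a CV of 2.68% (1.73 to 5.91%), and 1.38% without control 10. PGK1 and SDHA followed with 5.81% and 5.85%. RPL13, LDHA, TFRC, RPS7 and RPLP0 lay between 7.89% and 9.48%. Of these, LDHA fell to 5.11% and TFRC to 5.39% without control 19, and RPS7 to 5.38% without control 10. EEF1A1, HSP90AB1, ACTB, RPL32 and HPRT1 lay between 9.83% and 12.1%. ACTB had 42.6 CPM in control 18 and 60.8 CPM in control 22, and its CV of 10.4% had an interval of 6.73 to 22.98% and was 6.48% without control 18. Intervals of neighbours in this order overlap, and all of them are for the CPM as deposited. The CV of YWHAZ lay under the 2.07% that counting alone would give. ACTB had a CV of 8.83% under median-of-ratios scaling. Under median-of-ratios scaling SDHA, YWHAZ and GAPDH had CVs of 3.27%, 3.33% and 3.45%, so their order depends on the scaling. The 7 lens libraries gave another order: YWHAZ had a CV of 8.93% there and GAPDH 7.40%, while PGK1, SDHA and LDHA had 4.51%, 4.70% and 4.85%, RPL32 5.67% and HPRT1 6.76%. The small CVs of YWHAZ and GAPDH are thus values of these 7 control libraries. PPIA (7.85 CPM), GUSB (4.97 CPM), TBP (4.25 CPM) and B2M (0.644 CPM) were under 10 CPM; TBP overlaps PSMB1, a row with more reads.

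**Figure D5:**
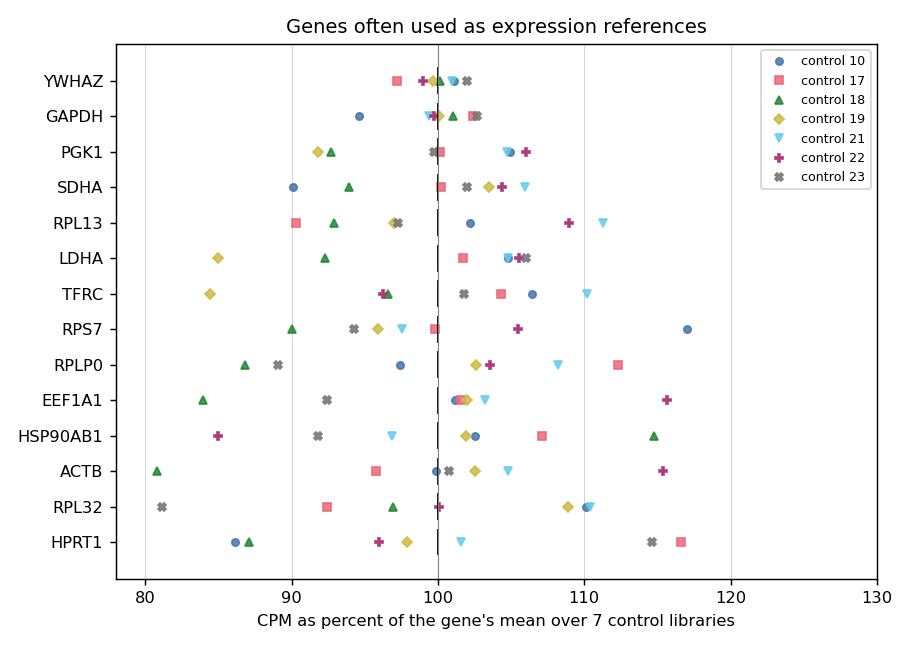
CPM of 14 reference genes over 10 CPM in each control library as a percent of the gene's own mean, ordered from the smallest CV at the top; black ticks at 100 mark the means. The points of YWHAZ lie closest to 100, GAPDH has control 10 to the left of the other 6, and HPRT1, at the foot, has the largest CV.

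Of 25 listed retinal signals studied in eye growth, 16 had a mean of at least 1 CPM, against 59% of all rows, and 5 a mean of at least 10 CPM, against 28.7% of all rows. DRD4, a dopamine receptor known from photoreceptors, had from 22.6 CPM in control 18 through a median of 26.7 to 36.4 CPM in control 21. PENK, the enkephalin precursor, averaged 15.8 ± 1.34 CPM, GCG, the glucagon precursor, 15.0 ± 2.49 CPM, and TGFB3, a growth factor, 11.8 ± 1.12 CPM; EGR1 is the other member. IGF2 and BMP7, secreted growth factors, averaged 9.14 ± 1.09 and 8.22 ± 1.27 CPM, RARB, a retinoic acid receptor, 7.89 ± 0.904 CPM, and IGF1 7.36 ± 0.673 CPM. DRD2, the other dopamine receptor listed, had 1.82 ± 0.439 CPM, NOS1, nitric oxide synthase, 2.06 ± 0.422 CPM, and ALDH1A2, which makes retinoic acid, 1.65 ± 0.349 CPM. FOS, VIP and BMP2 averaged 0.836 ± 0.292, 0.761 ± 0.175 and 0.952 ± 0.289 CPM. SST, somatostatin, was at 0 or at most 1 read in each library.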

How the data were processed

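Total RNA of 14 retinas was sequenced from a stranded library after ribosomal RNA depletion, per the labels' protocols; 7 control libraries are described and the 7 lens libraries serve only for 1 check of the spread. Per the submitters' processing notes, the tools were STAR and Partek and the build GRCg6a. The counting step and its use of strand are not given in the sources used, and genes that overlap may share reads. The deposited values were read as CPM by their form: a constant of 0.0001 in every cell plus, for 93.9% to 95.1% of low values (up to 20 steps, tolerance 0.05 steps), whole multiples of 1 step per library. That share was too low to recover counts. The step gave the depth and the counting CV, which covers counting error only. The table held 0 columns of other series.

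Means, SDs and CVs over the 7 controls were computed on the CPM as deposited in Python 3.11.15 with pandas 2.3.3, NumPy 2.4.6 and SciPy 1.17.1, after the CV code was tested on simulated data. Levels of 1, 10 and 100 CPM and CVs of 25% and 5% set the classes. Chromosome names came from RefSeq names of GRCg7b (15355 of 18631 symbols matched). The protein-coding mark and the coordinates came from the deposited table. Genes were named by rule: the 30 coding and 5 other rows of highest mean, the 30 most and 20 least variable rows off W, the top W rows, the leading and the most and least variable members of 36 gene lists, and the reference and eye growth genes; some genes these rules select are not reported here. CNGA3, CNGB3, OPN1MSW, OPN1SW, OPN2SW, LDHB, CDH5, CLDN5, RGS5, CRYAA, TYR, PMEL, RSRP1, RPS19, TNC and neighbours of overlapping rows were named after their values were seen. The members and lists were chosen with earlier results of these data known. Alternatives covered the scaling, the level thresholds, the sex chromosomes, the log scale, counting variance and each library left out in turn.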

Additional observations from a re-analysis of the deposited data

Results flagged for a closer look

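Dixon's test was applied to 244 sets of 7 control values, for genes named here and for list sums. In 16 (6.56%) of them 1 library lay far from the other 6. The level used marks about 5% of groups by chance. However, these sets include rows picked for a large CV, genes named after their values were seen, and sums that contain flagged genes. Their share is therefore not read against 5%. Over 5031 rows with a mean of at least 10 CPM off W, Z and the mitochondrion, 253 (5.03%) were so marked; control 10 was the library apart in 62 of them, with 48 below the rest.

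In control 10, GAPDH had 697 CPM against 732 to 756 CPM in the other 6, HSP90AA1 374 CPM against 529 to 637 CPM, HSPA8 375 CPM against 496 to 558 CPM, GRIK1 130 CPM against 148 to 158 CPM, and RPS19 5.56 CPM against 15.3 to 18.8 CPM. The summed cytosolic chaperone list had 1125 CPM there against 1537 to 1685 CPM, a sum that contains HSP90AA1 and HSPA8. In control 18, CPE had 275 CPM against 475 to 563 CPM, and the mitochondrial ribosomal RNAs EYY68_mgr01 and EYY68_mgr02 had 960 CPM against 299.7 to 486 CPM and 440 CPM against 55.5 to 183 CPM. In control 22, CA2 had 542 CPM against 273 to 352 CPM, INSIG1 34.99 CPM against 26.4 to 30.1 CPM, and the summed cholesterol synthesis list, which contains it, 396 CPM against 297 to 335 CPM. In control 21, RGS7 had 83.0 CPM against 74.3 to 77.7 CPM, the summed rod list 715 CPM against 540 to 615 CPM, and CRYAA 0.0582 CPM where the others are listed at 0. In control 19, the summed muscle list had 1.07 CPM against 0.515 to 0.720 CPM.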

How the results depend on the processing

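The numbers of expressed genes (10988), variable genes (134) and stable genes (816), counted as rows of the table, and the share of the first 50 rows (13.7%) kept within 1.5 times of these values, or within 1 SD for the share, when any 1 library was left out: 10957 to 11010, 107 to 163, 849 to 1041 and 13.6% to 13.9%. Expressed genes numbered 5345 at a mean of at least 10 CPM. The first 50 coding rows alone held 8.98% of all listed CPM. Variable genes numbered 408 when the listed rows of each library were scaled to 1000000, which lets more rows past 10 CPM, 1108 at a mean of at least 1 CPM, 42 at 30 CPM, 61 with W and Z left out, 63 after removal of a line on the W-linked level, and 202 on the log2(CPM + 0.1) scale. Stable genes numbered 1295 with counting variance subtracted. Under median of ratios and under the trimmed mean of M values, variable genes numbered 162 and 163 and stable genes 981 and 968. The first 50 rows kept all 50 members under each scaling and the 30 most variable rows 26 or 27, but the 20 least variable rows kept 0 under either of these and 3 under scaling to 1000000. With any 1 library left out, 49 or 50, 24 to 27, and 11 or 12 rows of these 3 sets were shared. For the genes named here, leaving out a library moved 56 of 1211 CVs and 0 of 1477 means beyond the bounds set. A change of scaling moved 52 of 519 CVs and 6 of 422 means. Division by coding length was not run, as no lengths were given. No paired analysis was possible because a single group is described and the title numbers are not shared between groups. Depth limits the CV most at 1 to 3 CPM, where counting alone gives a median of 12.7%.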
